A study of Rattus norvegicus with 12 samples.

Results

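The 10 genes described here encode lysosomal proteins of the rat liver: the cathepsins Ctss, Ctsb, Ctsd, Ctsl and Ctsz, the asparaginyl endopeptidase Lgmn, the lysosomal membrane glycoprotein Cd68, the tartrate-resistant acid phosphatase Acp5, the transmembrane glycoprotein Gpnmb and the lysosomal acid lipase Lipa. They were 10 of the 32883 genes in the deposited count tables. They were listed by name for a reading that Ctss leaned to LEW rats while Acp5 and Gpnmb leaned to DA rats, so the difference between the strains in these genes is given below as a description, with the value of every rat and without a test. In Kupffer-like cells of total liver homogenates and of nuclei, every DA rat lay above every LEW rat for Acp5 and Gpnmb, values that belong to those the genes were listed for, and the rats of the strains overlapped for Ctss.

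The livers came from healthy male Dark Agouti (DA) and Lewis (LEW) rats without treatment, and the design text of the deposit gives an age of 8 to 10 weeks. The methods text gives an older age, and the names of the deposited homogenate tables give the LEW rats an older age than the DA rats. By these names, age and strain cannot be told apart in the homogenate comparisons, and the differences below are called strain differences with this limit. Single cells of total liver homogenates (TLH) were taken from 2 DA and 2 LEW rats after collagenase digestion and sequenced with 3′ v2 chemistry. Single nuclei from frozen liver came from 2 DA and 2 LEW rats, and immune-enriched cells from 1 rat of each strain, both with v3 chemistry. 2 Visium sections were cut from healthy male Wistar livers. The rats of a preparation are named DA-1, DA-2, LEW-1 and LEW-2, and the number does not link a rat across preparations. The design text describes the nuclei as coming from further rats, while the names of the nuclei tables carry animal numbers that also occur among the homogenate tables, so the 2 preparations may not be independent.

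The TLH libraries held 61441846 to 92484173 unique molecular identifiers (UMIs), of which 3844 to 7112 cells per rat were kept, against 2205 to 5262 nuclei per rat and 1163 and 2677 immune-enriched cells. Cells were grouped by clustering without the 10 genes and without 97 other lysosomal genes, and groups were named from marker lists. The Kupffer-like class held 1613 TLH cells, 284 nuclei and 210 immune-enriched cells, and 13 of its 14 markers had UMIs, with Slc40a1 at 0. The Lyz2/Cd74 myeloid-like class, led by Lyz2, Cd74 and the RT1 class II genes, held 336 TLH cells, 52 nuclei and 173 immune-enriched cells. Endothelial-like cells numbered 2680, 490 and 544 and hepatocyte-like cells 16325, 10662 and 1970 in the same order. Levels are given as CPM, the UMIs of a gene per 1000000 UMIs of a class in 1 library, with cells of a rat summed, since cells of 1 liver are not replicates. Pairs of nuclei libraries shared 1 to 6 cell barcodes. The TLH and immune-enriched tables were used without barcode lists.

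Lysosomes degrade material that cells take up or recycle, and Kupffer cells, the resident macrophages of the liver sinusoid, clear particles and dying red cells by this route. Cathepsins S, B, L and Z are cysteine proteases and cathepsin D is an aspartic protease. Cathepsin S trims the invariant chain during antigen presentation and legumain processes several cathepsins. Acp5 and Gpnmb are known from osteoclasts and from lipid-laden or phagocytic macrophages, and Lipa hydrolyses cholesteryl esters and triglycerides. Many lysosomal genes respond to the factors TFEB, TFE3 and MITF, which bind E-box-like sequences.

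Promoters are shown because 3 of the genes that the strain reading named, Ctss, Acp5 and Gpnmb, held the same 7-letter sequence near the start site, and Ctsd held the longer palindrome of the lysosomal gene network. Of the 10 genes, 9 had promoter entries in RefSeq (build GRCr8), from 250 bases before to 50 bases after the start, and Acp5 had an entry for each of its starts. Capitals mark TCATGTG or its reverse complement CACATGA, an E-box variant, in Ctss, Acp5 and Gpnmb, TGAGTCA, a sequence of the AP-1 type, in Gpnmb, and TCACGTGA or CACGTG in Ctsd.
Ctss, chr2:185775146-185775445, plus strand: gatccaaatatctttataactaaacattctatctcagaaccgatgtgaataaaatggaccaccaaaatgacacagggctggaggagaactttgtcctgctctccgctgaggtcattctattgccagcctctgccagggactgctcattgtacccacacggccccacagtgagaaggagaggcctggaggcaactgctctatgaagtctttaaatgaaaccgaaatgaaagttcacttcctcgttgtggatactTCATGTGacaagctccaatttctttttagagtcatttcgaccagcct
Acp5, chr8:28943880-28944179, minus strand: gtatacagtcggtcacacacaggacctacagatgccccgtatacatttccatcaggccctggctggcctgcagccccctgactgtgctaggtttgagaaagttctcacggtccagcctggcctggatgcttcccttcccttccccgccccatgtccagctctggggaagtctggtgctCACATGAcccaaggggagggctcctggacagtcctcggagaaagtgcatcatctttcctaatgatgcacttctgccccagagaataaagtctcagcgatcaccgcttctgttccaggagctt
Gpnmb, chr4:79340878-79341177, plus strand: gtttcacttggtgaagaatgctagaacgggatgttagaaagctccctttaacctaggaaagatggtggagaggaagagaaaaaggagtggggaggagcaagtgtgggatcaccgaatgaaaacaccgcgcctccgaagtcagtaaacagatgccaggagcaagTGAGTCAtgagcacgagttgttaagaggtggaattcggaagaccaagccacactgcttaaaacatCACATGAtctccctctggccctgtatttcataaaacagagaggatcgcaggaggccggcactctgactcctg
Ctsd, chr1:206968772-206969071, minus strand: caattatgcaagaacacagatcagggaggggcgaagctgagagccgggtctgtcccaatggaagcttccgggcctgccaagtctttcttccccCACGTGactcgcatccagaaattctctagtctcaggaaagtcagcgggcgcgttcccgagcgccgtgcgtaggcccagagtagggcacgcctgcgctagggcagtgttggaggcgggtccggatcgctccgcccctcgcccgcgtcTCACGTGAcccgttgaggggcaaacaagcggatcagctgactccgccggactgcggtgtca

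Searched on both strands, TCATGTG began at base 4 after the start of Ctss, at base -72 of Acp5 and at base -22 of Gpnmb, and it was found in 3.56% of all 33469 rat promoters in the table and in 13.0% of the 77 promoters of other lysosomal genes. TCACGTGA, which contains CACGTG, began at base -11 of Ctsd, and a further CACGTG began at base -157. TCACGTGA was present in 0.777% of all promoters and CACGTG in 6.42%, against 13.0% and 26.0% of the other lysosomal promoters. TGAGTCA lay at base -87 of Gpnmb and at bases -205 and -80 of Cd68, and in 4.63% of all promoters. None of these letters was found in the promoter windows of Ctsl, Ctsz, Lgmn and Lipa or in the second window of Acp5. These matches describe the letters in the windows only. The printed windows were chosen by their matches, so the shares are no test of them, and nothing is read from them about the strains.

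In TLH cells, 9 of the 10 genes had their highest level of the 4 main classes in Kupffer-like cells, and Ctsl had it in endothelial-like cells. Lgmn stood at 650 ± 128 CPM (SD, n = 4 rats) in Kupffer-like cells against 148 ± 53.3 in Lyz2/Cd74 myeloid-like, 60.6 ± 9.60 in endothelial-like and 24.2 ± 3.0 in hepatocyte-like cells. Every rat was higher in Kupffer-like cells than any rat in the next class. The same separation of all rats between Kupffer-like cells and the next class was seen for Ctsb, Ctsd, Ctsz and Lipa.

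For Ctss, Cd68, Acp5 and Gpnmb the ranges of Kupffer-like and Lyz2/Cd74 myeloid-like cells overlapped over rats. Ctss stood at 189 ± 113 CPM (SD, n = 4) in Kupffer-like and at 63.7 ± 47.4 in Lyz2/Cd74 myeloid-like cells, and it was higher in Kupffer-like cells in 4 of 4 rats when compared within a rat. Cd68, a widely used macrophage marker, stood at 690 ± 295 and 257 ± 127 and was likewise higher within 4 of 4 rats. Acp5 (188 ± 71.6 against 156 ± 71.2) and Gpnmb (159 ± 61.1 against 113 ± 121) were higher in Kupffer-like cells in 3 of 4 rats, so their order between these 2 classes did not exceed the spread.

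Ctsl had another distribution than the other cathepsins. It stood at 1467, 1808, 2481 and 2097 CPM in endothelial-like cells of DA-1, DA-2, LEW-1 and LEW-2, a mean of 1963 ± 431, against 531 ± 48.9 in Kupffer-like, 486 ± 48.8 in hepatocyte-like and 352 ± 27.9 in Lyz2/Cd74 myeloid-like cells. Mesenchymal-like cells were second at 792 ± 147, with all rats below the endothelial-like range and above the Kupffer-like range. Kupffer-like and hepatocyte-like cells did not separate for this gene.

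**Figure D1:**
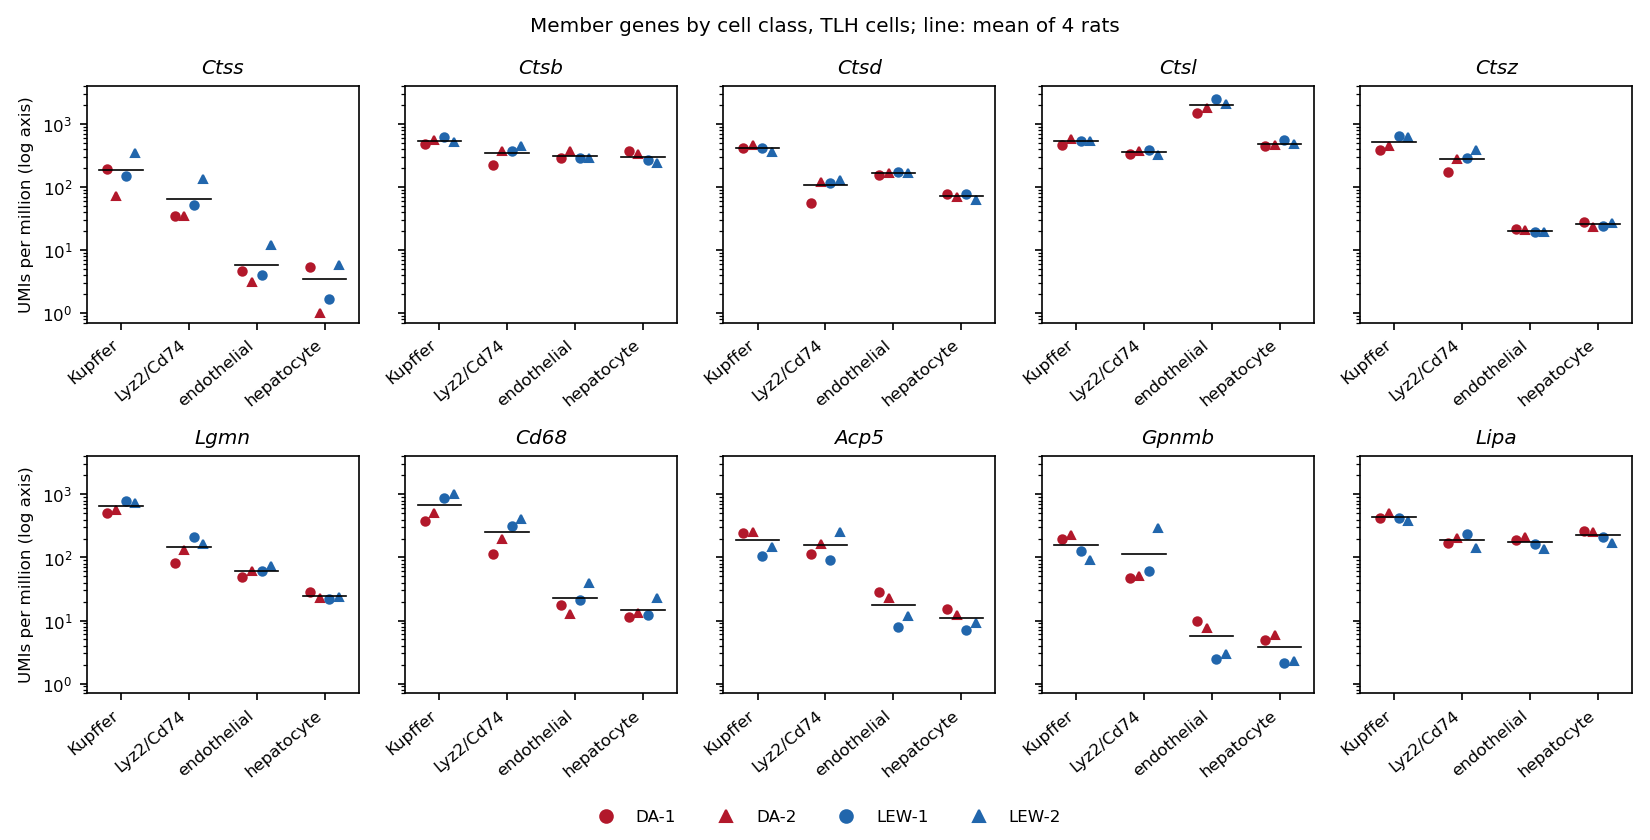
Level of each of the 10 genes in CPM (log axis) in 4 cell classes of TLH cells, 1 point per rat with a line at the mean of 4 rats. Lgmn falls from a mean of 650 in Kupffer-like to 24.2 CPM in hepatocyte-like cells, and Ctsl is highest in endothelial-like cells at 1467 to 2481 CPM.

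Among the 4 main classes, the one with the highest level was the same in immune-enriched cells. The same 9 genes were highest in Kupffer-like cells, and Ctsl stood at 7422 (DA) and 8157 (LEW) CPM in endothelial-like cells. Outside these 4 classes, Ctsz was higher in plasmacytoid dendritic cell-like than in Kupffer-like cells in both libraries. Acp5 was higher in B cell-like than in Kupffer-like cells in the LEW library. The order below the highest of the 4 classes was not kept for all genes: Lgmn stood at 183 and 171 CPM in endothelial-like cells there, above 76.4 and 110 in Lyz2/Cd74 myeloid-like cells. In nuclei, Ctss, Lgmn, Cd68 and Gpnmb were highest in Kupffer-like nuclei, Ctsd and Ctsl in endothelial-like nuclei, and Ctsb, Ctsz, Acp5 and Lipa in the 52 Lyz2/Cd74 myeloid-like nuclei, where a gene had at most 25 UMIs in a rat. The markers of that class summed to 2.35%, 3.67% and 3.04% of UMIs in DA-1, DA-2 and LEW-2 but to 0.308% in LEW-1. B cell markers summed to 1.33% in LEW-1 and to at most 0.0758% in the other rats, so the LEW-1 nuclei go against the class name. Among the 10 genes in nuclei, only Ctsl had every rat above every rat of the next class. Lipa (664 ± 291 CPM against 637 ± 250 in Kupffer-like nuclei) was above the next class in 2 of 4 rats. Ctsb, Ctsz, Acp5, Cd68 and Gpnmb were above their next class in 3 of 4 rats. The genes also differed in how much of their RNA was seen in nuclei. In Kupffer-like cells, the mean level in TLH cells over that in nuclei was 13.3 for Ctss (796 UMIs in cells, 10 in nuclei), 4.82 for Cd68, 3.30 for Ctsz and 0.679 for Lipa, with the other 6 genes between 1.03 and 1.89. The median over 3661 genes was 0.472. Cells and nuclei also differed in chemistry and sequencer and may have differed in rats, and the part of each in these ratios cannot be told apart.

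RNA that leaks from one cell type into droplets of another bears on low levels, so the level in hepatocyte-like cells was set against that in Kupffer-like cells, with 7 genes of Kupffer cells (Marco, Clec4f, Vsig4, Cd5l, C1qa, C1qb and C1qc) as a scale. These 7 stood in TLH hepatocyte-like cells at means of 1.81% to 2.28% of their Kupffer-like level, with single rats from 0.837% to 3.51%. Ctsl stood at 92.0%, Ctsb at 56.8%, Lipa at 52.0% and Ctsd at 17.3%. Acp5 (5.94%), Ctsz (5.12%) and Lgmn (3.89%) were lower, and these 7 genes exceeded every Kupffer gene of the scale in 4 of 4 rats, in TLH cells and in nuclei. With stricter cell filters in nuclei, Acp5 did so in 2 and Lgmn in 3 of 4 rats. In TLH cells Gpnmb (mean 2.32%) exceeded every gene of the scale in 3 of 4 rats, Cd68 (2.31%) in 2 and Ctss (1.75%) in 0, all close to the scale, and with classes from marker counts Cd68 did so in 4 of 4. In nuclei Cd68 exceeded the scale in 1 of 4 rats and Ctss and Gpnmb in 0. The scale holds genes of Kupffer cells only, so it does not cover RNA leaked from other classes. Ctsl, for example, was highest in endothelial-like cells, and Ctsz and Acp5 were also seen in Lyz2/Cd74 myeloid-like cells. The source of the levels in hepatocyte-like cells was not tested.

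**Figure D2:**
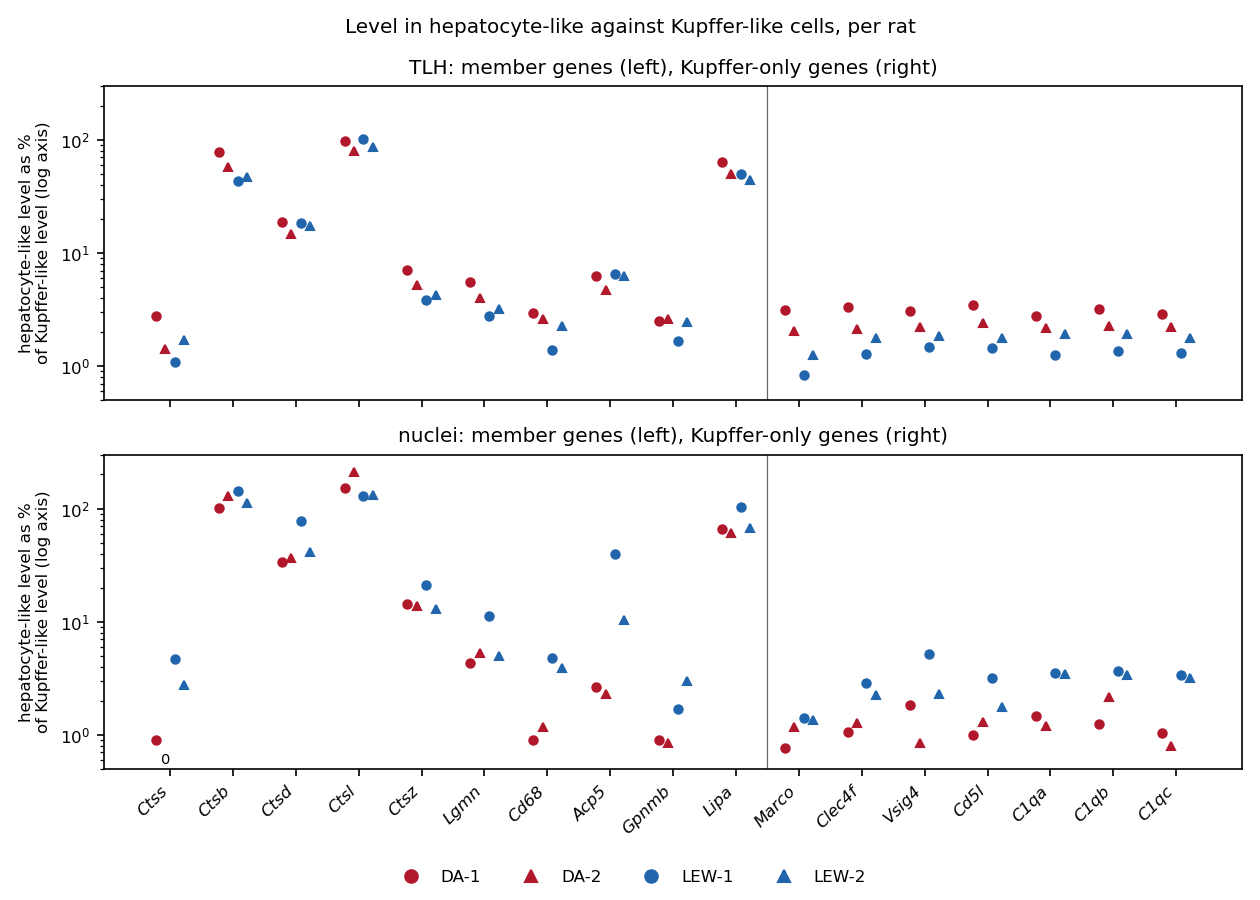
Level in hepatocyte-like cells as a percent of the level in Kupffer-like cells (log axis), 1 point per rat, for the 10 genes on the left and 7 genes of Kupffer cells on the right, in TLH cells above and nuclei below. In TLH cells the genes of Kupffer cells lie between 0.837% and 3.51%, Ctss, Cd68 and Gpnmb lie within that range, and Ctsl, Ctsb and Lipa lie at means of 92.0%, 56.8% and 52.0%.

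The strains were compared first in Kupffer-like cells of TLH, the class with the highest levels. Acp5 stood at 244 and 253 CPM in DA rats and at 107 and 148 in LEW rats. The strains did not overlap, and the fitted log2 difference of LEW over DA was -1.0. Gpnmb stood at 194 and 225 in DA and at 127 and 90.7 in LEW rats, again without overlap and with a log2 difference of -1.0. Cd68 had the opposite lean, with 377 and 512 CPM in DA and 866 and 1005 in LEW rats and a log2 difference of 1.03.

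Ctsz and Lgmn also separated with LEW higher. Ctsz stood at 391 and 446 in DA and 635 and 621 in LEW rats, with a log2 difference of 0.54, and Lgmn at 512 and 575 against 785 and 728, with 0.43. Ctss stood at 192 and 71.3 CPM in DA and at 150 and 341 in LEW rats. Its mean was higher in LEW by 0.90 on the log2 scale, but LEW-1 lay below DA-1, and the value was 0.14 without LEW-2, 0.32 without DA-2, 1.39 without LEW-1 and 1.74 without DA-1. The lean of Ctss in this class thus rested on 1 high LEW rat and 1 low DA rat.

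The other 4 genes overlapped between the strains in TLH Kupffer-like cells. Ctsb ranged from 475 to 618 CPM over the 4 rats, Ctsd from 359 to 472, Ctsl from 461 to 575 and Lipa from 384 to 505, with log2 differences between -0.24 and 0.07. In all, 3 of the 10 genes separated with LEW higher, where 28.6% of the 6621 genes tested in this class did, and 2 with DA higher, against 23.0% of all genes. Nothing is read from these counts, here and in the classes that follow, because the genes were listed for their strain values.

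Genes of the Kupffer cells themselves moved with the strains in this preparation. The 14 markers of the class summed to 2.10% and 2.31% of UMIs in DA and to 4.16% and 4.26% in LEW rats, with 10 markers separated toward LEW, Hmox1 separated toward DA and 3 overlapping. Hepatocyte markers summed to 10.6% and 12.7% in DA and to 8.47% and 9.25% in LEW rats in the same cells. Per 1000 UMIs of the Kupffer marker list, Acp5 stood at 11.6 and 10.9 in DA against 2.58 and 3.49 in LEW rats, a log2 difference of -1.89, and Gpnmb at 9.25 and 9.73 against 3.05 and 2.13, a log2 difference of -1.87. On that scale the differences of Ctsz (-0.35) and Lgmn (-0.46) had the opposite sign to those in CPM, as had those of Ctsb (-0.81), Ctsl (-0.86) and Ctss (-0.073), and only Cd68 kept a positive value of 0.15, with overlapping rats. Ctsb, Ctsd (-1.11), Ctsl, Ctsz, Lgmn and Lipa (-1.12) also separated toward DA on that scale, and Ctss overlapped.

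Nuclei showed the lean of Acp5 and Gpnmb and did not show that of Cd68, Ctsz and Lgmn. Acp5 stood at 273 and 165 CPM in Kupffer-like nuclei of DA rats and at 13.4 and 35.4 in those of LEW rats, with a log2 difference of -2.97. These values rested on 74 UMIs in all. Gpnmb stood at 137 and 165 in DA and at 49.0 and 55.1 in LEW rats, from 72 UMIs, with a log2 difference of -1.45. Both genes thus had all DA rats above all LEW rats in both preparations.

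Cd68 stood at 191 and 155 CPM in nuclei of DA and at 84.6 and 142 in nuclei of LEW rats, and Lgmn at 483 and 469 against 267 and 323, so both separated with DA higher. Ctsz ranged from 147 to 169 with the strains mixed. Ctss had 10 UMIs in all and stood at 27.3, 5.15, 4.46 and 19.7 in DA-1, DA-2, LEW-1 and LEW-2, so no strain difference was detectable at this depth. In total 7 genes separated with DA higher and none with LEW higher, against 26.9% and 19.2% of the 4072 genes tested.

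The Kupffer markers had the reverse lean in nuclei, with sums of 1.21% and 0.986% in DA and 0.693% and 0.666% in LEW rats, 10 of 14 markers separated toward DA and none toward LEW. Hepatocyte markers summed to 7.77% and 7.20% in DA and to 9.22% and 7.85% in LEW nuclei. Per 1000 UMIs of the Kupffer marker list, Acp5 stood at 22.6 and 16.7 in DA against 1.93 and 5.32 in LEW nuclei (log2 -2.44) and Gpnmb at 11.3 and 16.7 against 7.07 and 8.27 (log2 -0.87). On that scale the difference of Cd68 was 0.089, that of Lgmn -0.0066 and that of Ctsd 0.018, each with overlapping rats. Ctsl stood at 23.3 and 22.0 in DA against 54.0 and 37.2 in LEW nuclei (log2 1.01) and separated toward LEW. Ctsz did so at 13.5 and 15.7 against 21.2 and 25.4 (log2 0.67), while Ctsb, Ctss and Lipa overlapped. Acp5 and Gpnmb were the genes of the 10 that separated toward DA on both scales in both preparations. In TLH cells the rescaling moved all 10 genes toward DA, so it could not reverse a lean to DA there. Both genes were listed for this lean, so nothing is read from their being the ones to do so. The part of the marker levels in the differences was not tested beyond this rescaling.

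**Figure D3:**
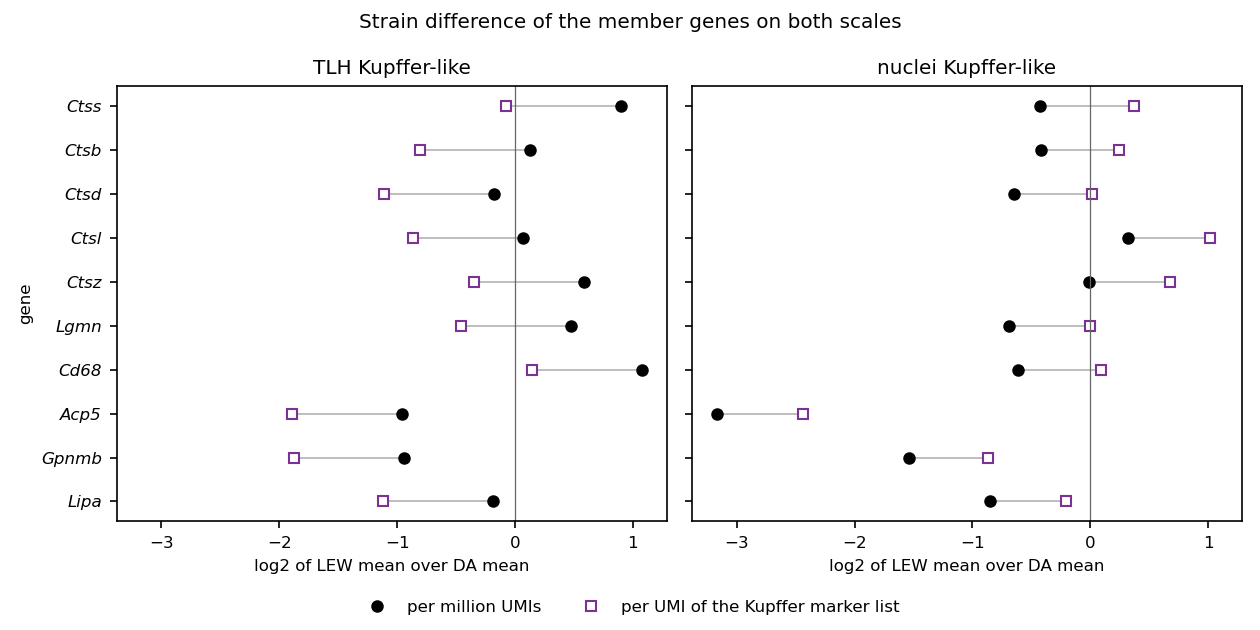
Log2 of the LEW mean over the DA mean of each gene in Kupffer-like TLH cells (left) and nuclei (right), in CPM (filled) and per UMI of the Kupffer marker list (open). Rescaling shifts all genes toward DA in TLH cells and toward LEW in nuclei, and Acp5 and Gpnmb stay on the DA side in all 4 positions.

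The immune-enriched cells gave 1 library per strain, so they carry no replicate check, and the intervals here are exact 95% Poisson intervals of counting error only, since UMIs of 1 rat say nothing of the spread between rats. In Kupffer-like cells Acp5 stood at 787 CPM (729 to 848) in DA and 412 (381 to 445) in LEW, and Gpnmb at 462 (418 to 510) and 208 (186 to 232). Cd68 stood at 1731 (1645 to 1821) in DA and 2270 (2197 to 2346) in LEW, Lgmn at 1486 and 1962, and Ctss at 203 (174 to 235) and 231 (208 to 256). The remaining 5 genes differed by at most 1.22-fold. Kupffer markers summed to 5.56% in DA and 8.35% in LEW, and Lyz2/Cd74 myeloid markers to 2.14% and 0.643%, in these cells. Per 1000 Kupffer marker UMIs, Acp5 stood at 14.2 and 4.94 and Gpnmb at 8.32 and 2.49.

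**Figure D4:**
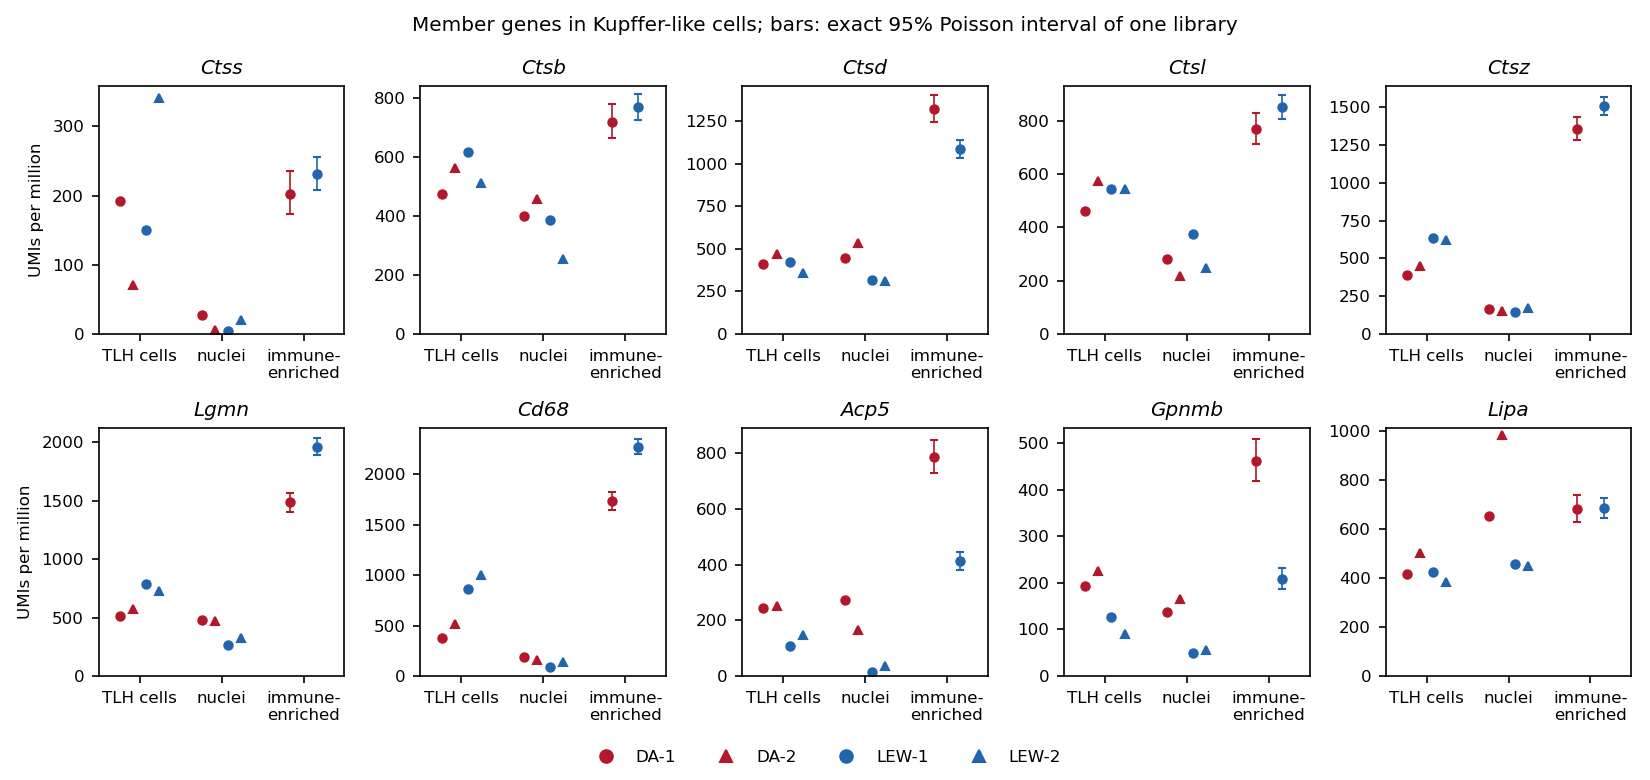
CPM of each gene in Kupffer-like cells of the 3 preparations, 1 point per rat, with exact 95% Poisson intervals for the immune-enriched libraries. Acp5 and Gpnmb have DA points above LEW points in each preparation, Cd68 and Lgmn have LEW above DA in TLH and immune-enriched cells and DA above LEW in nuclei, and the Ctss points of the strains interleave in TLH cells and nuclei.

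The Kupffer-like class of TLH consisted of 2 clusters, of 1125 and 488 cells. All 10 genes but Ctsl were lower on average in the smaller cluster, from 200 to 146 CPM for Ctss and from 202 to 139 for Acp5, while Ctsl stood at 524 and 558. In the larger cluster Acp5 stood at 265 and 265 CPM in DA against 118 and 159 in LEW rats, and in the smaller one at 151 and 225 against 70.8 and 107. Cd68 was higher in LEW rats without overlap in both clusters. Gpnmb separated in the larger cluster, at 217 and 266 against 133 and 98, and overlapped in the smaller one, at 95.3 and 133 against 106 and 63.5. Ctss separated toward LEW in the smaller cluster (134 and 59.5 against 159 and 230) and overlapped in the larger one. Strains did not overlap for 49.3% of genes in the larger and 40.7% in the smaller cluster.

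In Lyz2/Cd74 myeloid-like cells of TLH the lean of Gpnmb was the reverse of that in Kupffer-like cells. Gpnmb stood at 47.9 and 50.4 CPM in DA and at 61.2 and 294 in LEW rats, with a log2 difference of 1.79 that fell to 0.23 without LEW-2. Acp5 stood at 113 and 166 against 91.7 and 252 and overlapped, and its difference of 0.21 became -0.71 without LEW-2. Ctss stood at 34.8 and 35.3 against 51.0 and 134, with a log2 difference of 1.33 that was 0.45 without LEW-2. LEW-2 thus held the highest value of all 3 genes.

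Cd68 (113 and 196 against 316 and 402) and Lgmn (82.7 and 133 against 209 and 166) also separated with LEW higher in these cells, as did Ctsz, whose 282 in DA-2 and 285 in LEW-1 nearly touched. The 5 genes separated toward LEW stood against 26.3% of the 2499 genes tested, and none separated toward DA, against 20.6%. Kupffer markers summed to 0.323% and 0.533% in DA and to 0.775% and 0.873% in LEW rats in this class, and their part in these values was not tested. A further 2 clusters of 270 and 134 cells matched this class by markers but were led by lymphocyte and plasmacytoid genes and were left out. With both included, the difference of Gpnmb was 1.5, that of Ctss 0.77 and that of Ctsz -0.17.

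In the immune-enriched libraries the same class gave Gpnmb 14.3 CPM (6.55 to 27.2) in DA and 67.0 (43.3 to 98.9) in LEW, from 9 and 25 UMIs, and Cd68 352 (307 to 401) and 699 (617 to 789). Acp5 stood at 197 (164 to 235) in DA and 107 (76.6 to 146) in LEW there. The 52 nuclei of this class had 14 UMIs of Acp5, 2 of Gpnmb and 0 of Ctss, too few for a comparison.

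In TLH, Ctsl separated toward LEW in hepatocyte-like cells, given below, and in endothelial-like cells. Of the genes described here, Ctsl had the highest level in endothelial-like cells. In TLH, DA rats stood at 1467 and 1808 CPM and LEW rats at 2481 and 2097, a log2 difference of 0.41, whereas in nuclei DA rats stood at 1623 and 1948 and LEW rats at 1189 and 1215, a log2 difference of -0.54. The strains did not overlap in either preparation, in opposite directions. Endothelial markers moved the same ways in these cells. They summed to 0.743% and 0.789% of UMIs in DA and 0.923% and 0.794% in LEW rats in TLH. In nuclei they summed to 1.61% and 1.81% against 1.17% and 1.22%. The part of the marker levels in the Ctsl values was not tested. In the immune-enriched libraries the values were 7422 (7221 to 7627) in DA and 8157 (8002 to 8313) in LEW.

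Acp5 stood at 28.5 and 22.5 CPM in endothelial-like cells of DA and at 8.03 and 11.8 in those of LEW rats in TLH, at 28.0 and 35.5 against 16.3 and 7.94 in nuclei, and at 88.9 (68.1 to 114) against 28.4 (20.0 to 39.2) in the immune-enriched libraries. The DA values were higher in every preparation. In nuclei, however, Acp5 rested on few UMIs and did not pass the filter on low counts. The immune-enriched libraries held 1 rat per strain. Lipa stood at 188 and 213 against 165 and 136 in TLH and at 350 and 451 against 311 and 326 in nuclei, also without overlap. In TLH 3 genes separated toward LEW and 4 toward DA, against 29.1% and 20.1% of the 7371 genes tested. Kupffer markers summed to 0.0639% to 0.132% of UMIs in this class.

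In nuclei 7 genes separated toward DA in endothelial-like cells and none toward LEW, against 21.4% and 18.1% of the 4707 genes tested, with Ctsb at 462 and 654 in DA and 331 and 326 in LEW rats. Of the 10 genes, 5 passed the filter on low counts there, so the fitted differences cover Ctsb, Ctsd, Ctsl, Lgmn and Lipa. Cd68 and Acp5, also among the 7, did not pass and are not among the 4707 genes behind these shares. Ctss had no UMI in 490 endothelial-like nuclei.

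Hepatocyte-like cells of TLH had higher Ctsb and Lipa in DA rats. Ctsb stood at 372 and 328 CPM in DA and 265 and 243 in LEW rats, and Lipa at 265 and 250 against 214 and 171. Ctsl leaned to LEW, with 450 and 462 against 558 and 475. Acp5 (15.3 and 12.0 against 6.96 and 9.28) and Gpnmb (4.91 and 5.89 against 2.11 and 2.25) also separated toward DA, and Gpnmb was close to the scale of Kupffer genes, above it in 3 of 4 rats, by the ratio above. Here 4 genes separated toward DA and 1 toward LEW, against 29.1% and 24.0% of the 9903 genes tested.

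In hepatocyte-like nuclei the strains overlapped for all of these genes. The fitted log2 difference kept its sign for Lipa (-0.37), Acp5 (-0.24) and Ctsb (-0.19) but not for Ctsl (-0.087). Gpnmb did not pass the filter on low counts there. Ctsb stood there at 406 and 593 in DA and 558 and 289 in LEW rats, and Lipa at 433 and 602 against 476 and 303. Of the 10 genes only Cd68 separated, toward LEW, at 1.73 and 1.80 against 4.08 and 5.47 CPM, where 18.4% of the 10505 genes tested separated toward LEW and 17.8% toward DA. Kupffer markers summed to 0.0129% and 0.0120% of UMIs in DA and to 0.0213% and 0.0186% in LEW rats in the same nuclei, and Cd68 exceeded the scale of Kupffer genes there in 1 of 4 rats.

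Other lysosomal genes were not part of that reading and were tested. Their lists and the tests were still chosen with earlier results of these data known. Of 99 genes in lists of proteases, protease inhibitors, hydrolases, membrane proteins, proton pump subunits and regulators, 97 were in the tables and 77 were tested in TLH Kupffer-like cells with edgeR's quasi-likelihood test, with Benjamini-Hochberg adjustment over all 6621 genes. There 5 were higher in LEW rats and 2 in DA rats, 9.09% of the list against 8.31% of all genes. The Kupffer marker sum leaned to LEW in the same cells, at 2.10% and 2.31% in DA against 4.16% and 4.26% in LEW rats. The genes of the lists were not rescaled to it, and its part in these calls was not tested. Ctsh, a cathepsin with aminopeptidase activity, stood at 506 and 617 CPM in DA and 951 and 1055 in LEW rats, with a log2 difference of 0.79 ± 0.17 (SE; adjusted p = 0.00961). Ifi30, a lysosomal thiol reductase of antigen processing, stood at 345 and 353 against 533 and 583, with 0.63 ± 0.17 (SE; adjusted p = 0.0296).

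Galns, the sulfatase that degrades keratan sulfate, was lower in LEW Kupffer-like cells, at 26.1 and 22.5 CPM in DA against 4.88 and 10.3, a log2 difference of -1.70 ± 0.40 (SE; adjusted p = 0.0149). In nuclei it stood at 72.8 and 97.9 against 22.3 and 31.5, with a log2 difference of -1.59 and an adjusted p of 0.154. The Kupffer-like class held 1024655 and 969703 UMIs in the LEW rats of TLH and 109823 to 254105 per rat in nuclei. The LEW levels of Galns in TLH and all its levels in nuclei thus rest on few UMIs. Slc17a5, the sialic acid exporter, was also lower in LEW rats, by a log2 difference of -1.05 ± 0.30 (SE; adjusted p = 0.0435), and stood at -1.06 in nuclei with an adjusted p of 0.293. The remaining genes higher in LEW were Rnaset2 (0.58, adjusted p = 0.0455) and the proton pump subunits Atp6v1d and Atp6v1g1.

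The median log2 difference of the 77 genes was 0.17, against -0.0017 for all genes, and 54 of 77 were higher in LEW, including 15 of 16 proton pump subunits. In Kupffer-like nuclei the median of 56 tested genes was -0.33 and 18 were higher in LEW, so the list had opposite medians in the 2 preparations, as the Kupffer markers did. Of the genes tested in these nuclei, 4 of 12 proton pump subunits were higher in LEW, and 1 of 6 in the list of other proteases that holds Ctsh and Ifi30. The number of genes called in TLH Kupffer-like cells went from 7 to 0 without LEW-1, to 1 without LEW-2 and to 11 without DA-1. It was 1 with DESeq2 and 2 without the 6% of cells with the highest doublet scores. Across the alternative settings Galns passed in 12 of 13 and Ctsh in 10 of 14, and the other 5 genes in 4 to 6 of 14.

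In TLH hepatocyte-like cells 2 of 85 tested genes passed, 2.35% against 4.15% of all genes. Prcp, a lysosomal carboxypeptidase, stood at 1.83 and 1.86 CPM in DA and 5.86 and 8.72 in LEW rats, a log2 difference of 1.97 ± 0.32 (SE; adjusted p = 0.0145). Scpep1, a serine carboxypeptidase, stood at 47.7 and 45.5 against 21.1 and 17.9, a log2 difference of -1.23 ± 0.14 (SE; adjusted p = 0.00367). In hepatocyte-like nuclei Prcp stood at 3.21 and 4.59 against 19.0 and 10.2 (log2 difference 1.95, adjusted p = 0.0577) and Scpep1 at 117 and 122 against 50.6 and 41.8 (log2 difference -1.35, adjusted p = 0.0735), so the direction was kept and the threshold was missed. In TLH Kupffer-like cells Scpep1 stood at 157 and 174 against 192 and 172.

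No other lysosomal gene passed edgeR's test in the remaining 5 classes, where it called 2.6% of all genes in TLH Lyz2/Cd74 myeloid-like cells, 3.05% in TLH endothelial-like cells and 1.3%, 0.404% and 1.32% in Kupffer-like, endothelial-like and hepatocyte-like nuclei. At an unadjusted p below 0.05 there were 5 in TLH Lyz2/Cd74 myeloid-like cells, 11 in TLH endothelial-like cells, and 6, 5 and 5 in Kupffer-like, endothelial-like and hepatocyte-like nuclei. DESeq2 called 0 in these classes except 2 in hepatocyte-like nuclei. In simulated counts a log2 change of 1 was recovered in 1% to 5.5% of genes in the nuclei classes and a log2 change of 2 in 70% to 82.5%, so changes of 2-fold were mostly not detectable there.

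Over the 16 sums of 4 TLH rats by 4 classes, the genes whose levels followed each of the 10 most closely were sought among 2216 genes with at least 50 CPM. Acp5 and Gpnmb were each other's closest gene, with Pearson's r = 0.98 on log2(CPM + 1). Ctss, Cd68 and Ctsz had Aif1, a gene of macrophages, among their closest 3 genes, Lgmn had Grn, the gene of progranulin, and Ctsd had the lysosomal protease Tpp1. Ctsb had the proton pump genes Atp6ap2 and Atp6ap1 and the protease Ctsa, while Ctsl had Nostrin, Akr1c15 and Krt79. Ctsl had a negative r with 8 of the other 9 genes. The sums share 4 libraries and 4 classes, so these values mostly describe the order of the classes.

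In the Wistar sections each spot covers several cells, so fewer cells of a type and less RNA per cell cannot be told apart. Spots were ranked within a section by periportal less pericentral hepatocyte genes, and the 1 in 3 spots with the highest rank (periportal) were compared with the 1 in 3 with the lowest (pericentral). In both sections 7 of the 10 genes were higher in periportal and 3 in pericentral spots. Cd68 stood at 26.3 CPM pericentrally and 43.5 periportally in section A, ratios of 1.65 and 1.62 in sections A and B, and Acp5 had ratios of 1.5 and 1.56. The Kupffer genes Marco (3.17 and 4.75) and C1qa (1.65 and 1.69) leaned the same way.

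Lgmn had periportal over pericentral ratios of 1.38 and 1.51, Ctsz of 1.27 and 1.41, and Ctsb was nearly level at 1.03 and 1.02. Ctss (2.27 and 2.51) and Gpnmb (1.5 and 1.74) leaned periportally from 63 and 100 and from 126 and 178 UMIs in a whole section, so their ratios are the least precise. Lipa was lower periportally, with ratios of 0.738 and 0.739, as was Ctsl with 0.867 and 0.807, and Ctsd stood at 0.965 and 0.913. The 3 genes on the pericentral side were among the 4 with the highest levels in hepatocyte-like cells relative to Kupffer-like cells. Ctsb, the other of these 4, was nearly level, and Ctsl was highest in endothelial-like cells. The cell source of the RNA in the spots was not tested. The sections were 2 without replicate spots, so no test was made.

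**Figure D5:**
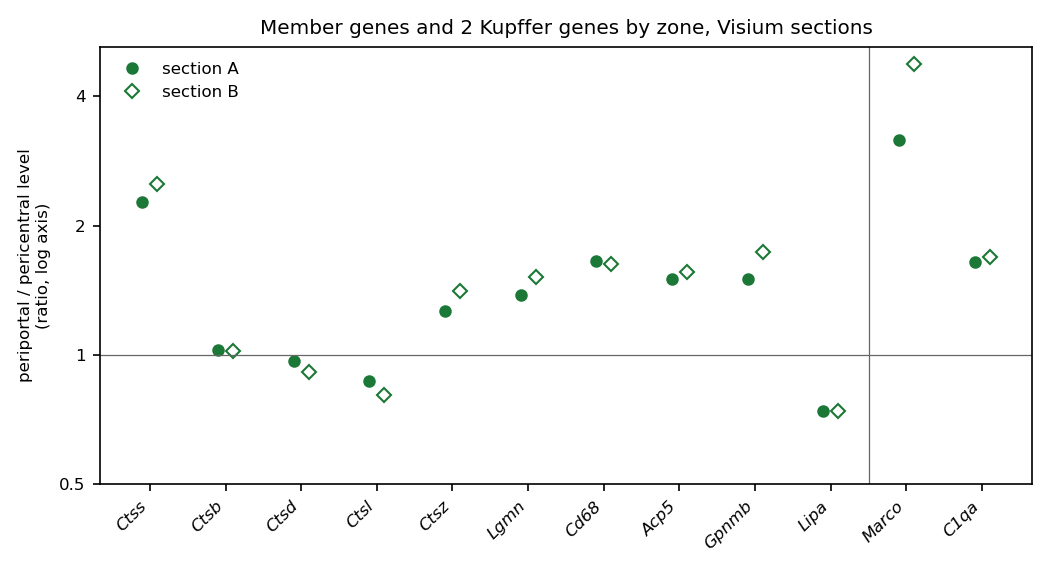
Ratio of periportal to pericentral level (log axis) of the 10 genes and of the Kupffer genes Marco and C1qa in Wistar sections A and B. Lipa lies at 0.738 and 0.739, Ctsb at 1.03 and 1.02, and Cd68, Acp5, Gpnmb and Ctss lie at or above 1.5 in both sections.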

How the data were processed

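The deposited values are UMI counts of each gene in each barcode that the authors left unnormalised, aligned and counted with Cell Ranger 3.1.0 (Space Ranger 1.1.0 for the sections, per the submitters' processing notes) against a custom rat reference that the study names, with 1 table per library and no pooling. The TLH and immune-enriched tables were used here without gene and barcode lists, so their rows took the gene names of the nuclei and section tables, which have the same 32883 rows. Under these names the clusters were led by sets of known marker genes. Groups came from the labels. Replicates are rats, and with 2 rats per strain a p-value sets the strain difference against the spread between these rats and no others. In the edgeR fit the spread of each gene is drawn toward that of all genes tested in the class.

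Cells were kept at a minimum of 1500 UMIs and a maximum of 30% mitochondrial UMIs (TLH DA-1), 2000 and 20% (DA-2), 2000 and 40% (both LEW rats), 1000 and 50% (immune-enriched) or 1000 and 10% (nuclei). The study states 1500 UMIs for LEW, and 2000 was used because that limit gives the cell total of the study. It leaves 5457 and 3844 LEW cells, where 1500 leaves 12124 and 7857. Counts were normalised with sctransform 0.4.2, and the first 15 of 50 components, corrected for rat by the Harmony method as rewritten in R, and 20 neighbours gave 17 (TLH), 33 (nuclei) and 18 (immune-enriched) clusters in Seurat 5.3.0. A cluster took the name with the most markers, at least 3, among its 30 leading genes, and a name other than hepatocyte-like also needed 3 of its markers among the first 10, a rule set after the clusters were seen. Clusters left unnamed became hepatocyte-like where 3 hepatocyte markers were among the 100 genes that led them over the other named classes. Scrublet in scanpy 1.11.5 (expected rate 0.06) called 1 to 3 doublets per TLH library, too few to have worked, and no doublets were removed.

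UMIs were summed per rat and class and fitted with edgeR 4.0.16 (TMM, robust quasi-likelihood, low-count filter, Benjamini-Hochberg over all genes tested, threshold 0.05), with DESeq2 1.42.0 as an alternative. The fit was tested on simulated counts with 200 changed genes: in TLH Kupffer-like cells (6621 genes) 46.5% of genes with a log2 change of 1 and 90.5% of those with 2 were recovered. False calls numbered 13 and 18 in turn. At a log2 change of 1 there were 27 false calls each in TLH endothelial-like and TLH hepatocyte-like cells. In each of the 7 classes tested, false calls at that change were a larger share of all calls than the threshold, with few calls in the nuclei classes. At a log2 change of 2 this held in all classes but TLH Lyz2/Cd74 myeloid-like cells. Adjusted p-values near the threshold are therefore less certain in every class. The members, the lists of other lysosomal genes and the tests were chosen with earlier results of these data known. The text names the 10 genes, at most 5 called lysosomal genes per direction and the 3 genes most alike to each member. Alternatives were the normalisation, the filters, the clustering, the class rule, doublets, a replicate block and leaving out each rat. Intervals cover counting error only.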

Additional observations from a re-analysis of the deposited data

Results flagged for a closer look

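These results were set apart because every rat of 1 strain lay above every rat of the other in both settings, in opposite directions. None of these differences was tested. Each value is the log2 ratio of the LEW mean over the DA mean in the second setting minus that in the first. The share of all genes that did the same between these settings was not counted. In TLH Kupffer-like cells, 28.6% of all genes tested separated toward LEW and 23.0% toward DA. In Kupffer-like nuclei the shares were 19.2% and 26.9%. Such shifts are therefore not read as a feature of the genes named here.

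In Kupffer-like cells, Lgmn went from 0.48 in TLH cells to -0.69 in nuclei, a shift of -1.163, and Cd68 from 1.07 to -0.61, a shift of -1.68. In endothelial-like cells, Cd68 shifted by -1.708 between TLH cells and nuclei, Ctsl by -1.053 and Ctsd by -0.3392. The nuclei value of Cd68 rests on 2 to 6 UMIs per rat, and the gene did not pass the low-count filter there. Within TLH, Gpnmb shifted by 2.772 from Kupffer-like to Lyz2/Cd74 myeloid-like cells, where LEW-2 held its highest value, and Ctsz by -0.7312 from Kupffer-like to endothelial-like cells. The Kupffer marker sum leaned to LEW in TLH Kupffer-like cells and to DA in Kupffer-like nuclei, and its part in these shifts was not tested beyond the rescaling given above. The endothelial marker sum leaned the same ways in endothelial-like cells and nuclei, and its part was not tested.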

How the results depend on the processing

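The count of other lysosomal genes called in TLH Kupffer-like cells (7) was 2 without the 6% of cells with the highest doublet scores, 1 with DESeq2, 1 at 1500 UMIs for LEW, 2 with classes from marker counts, 3 with stricter cell filters and 0 to 11 with 1 rat left out. In Lyz2/Cd74 myeloid-like cells (0) it was 2 when clustering used every gene, 1 without the low-count filter and 1 to 3 with a rat left out. In TLH endothelial-like cells (0) it was 3 at 1500 UMIs, 1 without called doublets, 1 with marker counts, 1 with every gene, 3 without the low-count filter and 0 to 1 with a rat left out. In TLH hepatocyte-like cells (2) it was 8 without the low-count filter, 1 with stricter cell filters and 1 to 2 with a rat left out. In hepatocyte-like nuclei (0) it was 2 without the 6% of cells, 2 with DESeq2, 1 with every gene, 3 without the low-count filter and 0 to 1 with a rat left out, as in Kupffer-like nuclei.

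Rats share replicate numbers only, in 2 pairs per preparation, with correlations of deviations of -0.137 to 0.072 over classes. With the replicate block, 2 genes were called in TLH Kupffer-like, 2 in TLH endothelial-like and 1 and 3 in Kupffer-like and hepatocyte-like nuclei. The block left the counts of the other 3 classes as they were. Crossed pairs, an alternative chosen after seeing the data, gave 13 in place of 7 in TLH Kupffer-like cells, 3 in place of 2 in TLH hepatocyte-like cells and 3 in place of 0 in hepatocyte-like nuclei.

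Of the 10 genes, the number higher in LEW moved from 6 to 1 per Kupffer marker UMI in TLH Kupffer-like cells (4 to 6 with a rat left out) and from 2 to 6 in Kupffer-like nuclei, where marker counts gave 1 and a left-out rat 1 to 2. It was 6 to 10 in Lyz2/Cd74 myeloid-like cells (8) and 2 to 5 in TLH endothelial-like cells (4) with a rat left out. In TLH hepatocyte-like cells (4) it was 2 at 1500 UMIs and 2 to 5 with a rat left out. It was 1 with marker counts and 1 without the low-count filter in endothelial-like nuclei (0), and 1 to 8 in hepatocyte-like nuclei (4) with a rat left out. With classes from marker counts, 7 genes in place of 4 were highest in Kupffer-like nuclei.

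Among differences whose strains did not overlap in CPM, those that changed sign per Kupffer marker UMI were Ctsz (-0.35) and Lgmn (-0.46) in TLH Kupffer-like cells and Ctsb (0.24), Ctsd (0.018) and Cd68 (0.089) in Kupffer-like nuclei, where Ctsd was also 0.30 with stricter cell filters. Ctsz changed sign in Lyz2/Cd74 myeloid-like cells (-0.0072 with marker counts, -0.17 with the withheld clusters), and Ctsd in TLH endothelial-like cells (-0.0052 with marker counts, -0.023 without the low-count filter, -0.047 to 0.079 with a rat left out, with -0.0086 without LEW-2). Of 980 single-gene values, 818 stayed within the spread or on their side of the threshold, 99 moved, 51 lost the threshold and 12 are the sign changes just given. With genes whose strains overlapped included, 65 of the values had another sign than the main one. The cause was not tested. The 6% of doublet scores, the Kupffer marker scale and the withheld clusters were also alternatives chosen after seeing the data.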

Other observations

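In the immune-enriched libraries, 1 rat per strain and so without a replicate check, classes other than those above held some of the 10 genes at high levels. Plasmacytoid dendritic cell-like cells, of which there were 57, had Ctsz at 1906 CPM in DA and 1690 in LEW and Ctsl at 1436 and 1352. Lgmn had 1 and 0 UMIs there, and Gpnmb had none. B cell-like cells, 113 in number, had Acp5 at 674 and 578 CPM with 0 UMIs of Gpnmb, so the closest pair of TLH parted in these cells. Acp5 stood at 144 and 115 CPM in T cell-like cells and at 109 and 142 in NK-like cells, while erythroid-like cells, a class that should lack the gene, had 1 and 0 UMIs of it. Mesenchymal-like cells had Ctsl at 2212 and 3373 and Lgmn at 333 and 1130 CPM, with Kupffer markers at 1.17% and 3.58% of their UMIs.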
